A study of Dunaliella salina with 9 samples.

Results

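Of the RNA of Dunaliella salina, a single-celled green alga that lives in brine, 345 of the 76875 transcript clusters listed had like levels at the lowest and the highest irradiance and fell to 1/2 or less of both at the middle irradiance. RNA was sequenced from 9 libraries in 3 groups of 3. The irradiance of LL cells stayed at 150 µmol photons m⁻² s⁻¹. It was raised in a single step from 150 to 600 for ML cells and from 150 to 1500 for HL cells. All had been cultured at 22 °C with 16 h of light and 8 h of dark. The labels give no strain, and neither they nor the files say how long after the light step the cells were collected. No label says that the libraries of a group came from separate cultures, so the spread between them may be partly technical.

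The clusters were chosen by level, in CPM, which is a cluster's read count divided by all counts of its library and given per 1e6 counts. Kept clusters had LL and HL means of at least 5 CPM that lay within 1.5-fold of each other. Their ML mean was at most 1/2 of the LL mean and at most 1/2 of the HL mean, and their highest ML library was below all 6 LL and HL libraries. Because this choice used the levels in all 3 groups, those levels are given as a description and support no test. Of all listed clusters, 12913 reached 5 CPM in LL and HL, and 8882 of these also had LL and HL within 1.5-fold of each other. The dipping clusters are 3.88% of these 8882, which are called the LL-HL-alike clusters from here on.

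Photoacclimation is the adjustment of an alga to a new light level. Cells moved to stronger light commonly reduce their light-harvesting antenna, put more of their resources into carbon fixation, and strengthen the dissipation of excess light and the repair of photosystem II. Dunaliella species are also known for making glycerol as an osmolyte and for building up carotenoids under strong light. The files do not pair cluster identifiers with gene names, and 0 of the 76875 identifiers was found in the RefSeq gene table for Dunsal1 v. 2. The clusters are therefore described by level, depth of the dip, length and read assignment, and no function, sequence or position is given for any of them.

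The dip took these clusters from 1.22% ± 0.062 of all counts in LL to 0.476% ± 0.021 in ML (SD, n = 3 each). In HL they stood at 1.43% ± 0.045. By library, their summed level was 12860, 12114 and 11623 CPM in LL, 4539, 4777 and 4953 CPM in ML, and 13814, 14708 and 14349 CPM in HL. Every ML library was thus far below every other library, as the choice of clusters requires, and each HL library was above each LL library. The ML sum was 39.0% of the LL sum and 33.3% of the HL sum. The 10 clusters with the highest CPM held 23.5% of the summed LL level, and without them the ML sum was 40.9% of the LL sum. A CPM is a share of a library, so less RNA of these clusters per cell, fewer cells that express them and more RNA of other transcripts cannot be told apart.

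**Figure D1:**
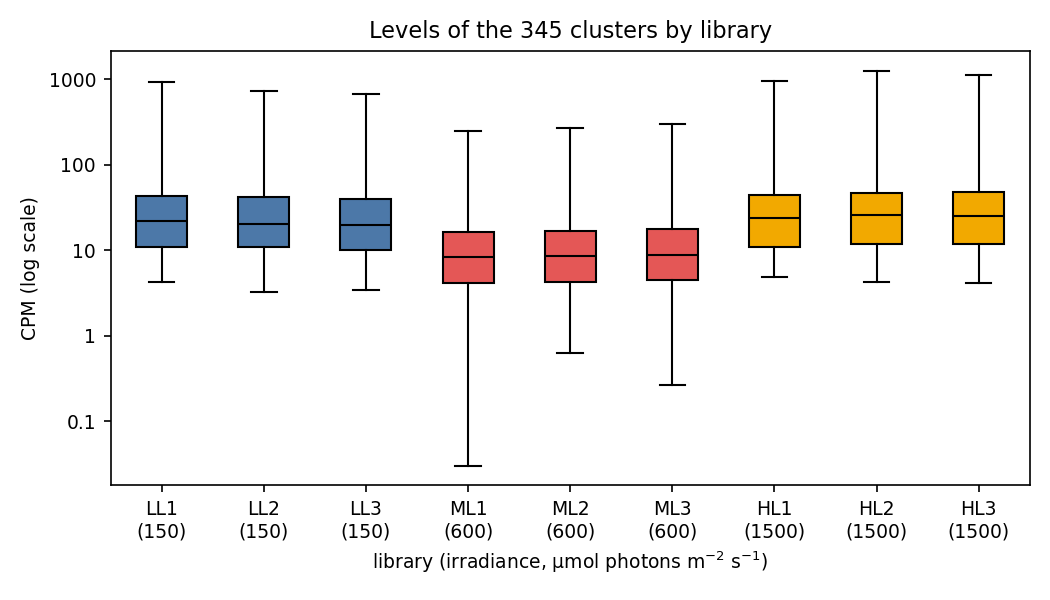
CPM of the 345 dipping clusters in each of the 9 libraries (log scale; box, middle quartiles; line, median; whiskers, lowest and highest value above 0; values of 0 are left out). The medians of the ML libraries lie below those of all LL and HL libraries, which follows from the choice of clusters, and the 3 ML boxes are alike.

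Typical dips were moderate. The median of the 345 clusters in a library was 20.8 ± 0.94 CPM for LL, 8.40 ± 0.32 for ML and 24.9 ± 0.80 for HL (SD, n = 3 libraries each). Relative to LL, the ML level had a median of 42.3%, and relative to HL it was 36.1%. Taken against the smaller of the LL and HL means, 229 of the 345 clusters lay above 0.4 and 70 lay between 1/3 and 0.4, while 46 lay at or under 1/3, 20 at or under 1/4 and 3 at or under 1/8. Most clusters are therefore near the limit of 1/2 that defines them. In 137 of the 345 clusters (39.71%) the lowest LL or HL library was at least 2-fold the highest ML library. Any LL-HL-alike cluster with such a gap is in the set by choice, so this count only describes how the set divides.

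Some values lay close to each limit of the choice. The highest ML level of a kept cluster was 49.98% of the smaller of LL and HL, and the nearest cluster outside stood at 50.04%. For the fold between LL and HL the values nearest the limit were 1.492 inside and 1.504 outside, and for the smaller of the LL and HL means they were 5.01 and 4.989 CPM. The ML limit decided most: 2917 clusters met every other condition and had an ML mean above 1/2 of LL or HL. Another 373 failed only the minimum level, 214 only the limit on LL against HL, and 12 only because an ML library reached into the LL or HL range.

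In edgeR's quasi-likelihood model of all 9 libraries, fitted to 34377 clusters with a Benjamini-Hochberg adjusted p below 0.05, all 345 clusters were tested. Of these, 336 were called lower in ML than in LL, where 19.5% of all tested clusters were called in that direction. For HL against ML, 340 were called higher in HL, against 28.9% of all tested, and 336 were called in both comparisons, against 15.6%. Among the LL-HL-alike clusters these shares were higher, at 47.1% lower in ML than in LL, 57.1% higher in HL than in ML and 41.6% in both. The comparisons share the ML libraries, and the clusters were chosen on the same differences, so these counts only describe the set. The median log2 fold change from LL to ML was −1.28, against 0.04 over all tested clusters, and that from ML to HL was 1.67, against −0.07. By choice, the highest ML library of every dipping cluster was below all LL and HL libraries. The same held for 15.5% of all tested clusters and for 36.7% of the LL-HL-alike clusters.

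LL and HL levels were alike by choice but not equal. The HL mean was above the LL mean in 266 of the 345 clusters (77.1%), compared with 46.1% of the LL-HL-alike clusters, and the median ratio of HL to LL was 1.17, compared with 0.976. All 3 HL libraries were above all 3 LL libraries in 168 clusters (48.7%) and below them in 18 (5.22%). These shares were 22.7% and 34.4% among all tested clusters, and 26.8% and 32.8% among the LL-HL-alike clusters. In 159 clusters (46.09%) the LL and HL libraries overlapped, as in 40.4% of the LL-HL-alike clusters. The means were within 1.1-fold of each other in 94 (27.25%), close to the 27.69% of the LL-HL-alike clusters. Between HL and LL, edgeR called 202 clusters (58.6%) higher in HL and 2 lower, where 22.1% and 22.4% of all tested clusters were called, and 35.7% and 13.3% of the LL-HL-alike clusters. These calls used TMM factors (scaling factors that balance most clusters between libraries), whereas the 1.5-fold limit was set on CPM without them. With TMM-scaled CPM the median ratio of HL to LL in the 345 clusters was 1.31. With library totals in place of TMM factors, 126 were higher and 10 lower, so a call can fall within the 1.5-fold limit. With limma on log2(FPKM + 1), 112 were higher and 9 lower. For library totals and limma no share over other clusters was computed, so these counts cannot show whether the excess is particular to the set. FPKM is the authors' level, scaled to transcript length and to depth. A set without any called difference between HL and LL was smaller: 132 of the 345 clusters (38.3%) were called at both steps and not between HL and LL, as were 20.3% of the LL-HL-alike clusters and 6.61% of all tested clusters. These 132 were 5.81% of the 2272 clusters with that pattern of calls, which asks for no 2-fold dip and no minimum level. The minimum level made little difference: of the 1821 clusters with that pattern at or above it in LL and HL, the 132 were 7.25%.

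**Figure D2:**
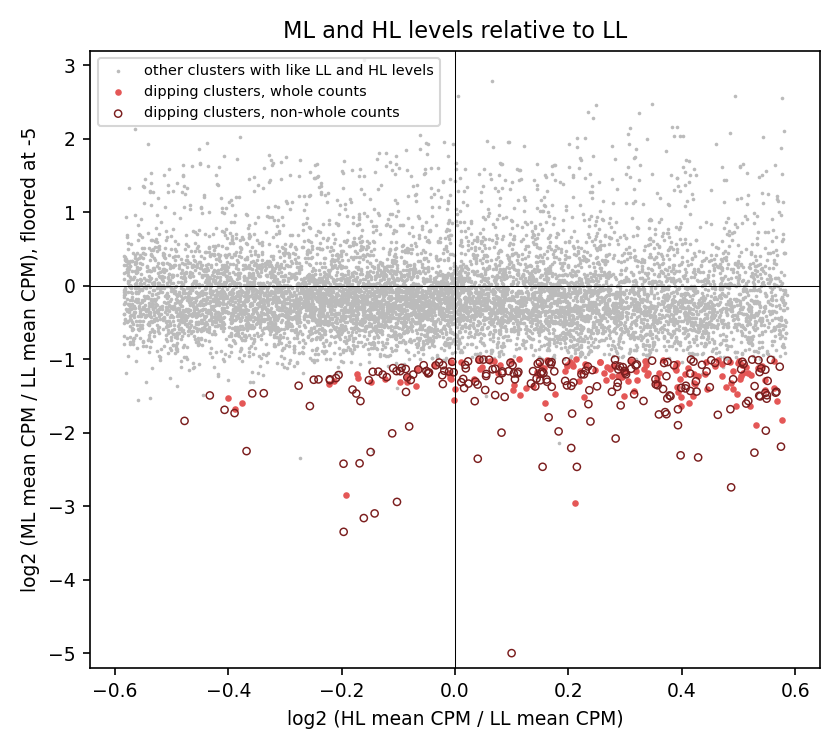
Each point is a cluster with LL and HL means of at least 5 CPM within 1.5-fold of each other, by the log2 ratio of HL to LL (horizontal) and of ML to LL (vertical, with the ML value of 0 drawn at the lowest tick). The dipping clusters (red, filled where all counts were whole, open where some were not) lie below the rest by choice; 266 of 345 lie right of 0, and most points far below are open.

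The cluster with the highest CPM among them was Cluster-5009.35655, with an implied length of 1564 bases. Its level was 921, 720 and 672 CPM in the LL libraries, 251, 271 and 298 CPM in ML, and 959, 1268 and 1129 CPM in HL. The LL and HL ranges did not meet, and the highest ML library was under 1/2 of the lowest LL library. In group means it went from 771 ± 132 CPM to 273 ± 23.4 and 1119 ± 155 (SD, n = 3 each), so that HL was 1.45-fold above LL, close to the limit. edgeR put its log2 fold change at −1.53 from LL to ML (SE 0.14) and at 2.24 from ML to HL (SE 0.14). Per length it was the fourth of the set, at 494 FPKM in LL, 175 in ML and 714 in HL. Its counts were non-whole in all 9 libraries.

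Next by CPM was a cluster of 856 bases with far tighter libraries. It stood at 462, 448 and 486 CPM in LL, 138, 133 and 144 CPM in ML, and 592, 605 and 594 CPM in HL. The third by CPM, of 1576 bases, stood at 330, 302 and 274 CPM in LL and 352, 376 and 375 CPM in HL, and at 67.4, 73.8 and 73.4 CPM in ML, which is 23.7% of the LL mean. The groups of both clusters were apart, with HL above LL throughout. The fourth, of 2247 bases, went the other way between LL and HL, with 356 ± 15.0 CPM in LL and 272 ± 6.80 in HL, and ML at 107 ± 1.29 (SD, n = 3 each). All 4 of these clusters had non-whole counts in all 9 libraries, so reads may have been divided among similar sequences and the level of each is less certain.

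The fifth by CPM, of 2091 bases, had whole counts in every library and almost no spread. It was at 199, 196 and 195 CPM in LL, at 69.9, 70.2 and 72.0 CPM in ML, and at 226, 222 and 219 CPM in HL. Here ML was 36.0% of LL, and the HL libraries lay just above the LL libraries. A cluster of 2633 bases, eighth by CPM and also with whole counts, varied more, from 126 to 187 CPM in LL, from 57.6 to 71.2 in ML and from 153 to 218 in HL. Its LL and HL libraries overlapped, whereas its ML libraries stayed under 1/2 of every HL library.

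**Figure D3:**
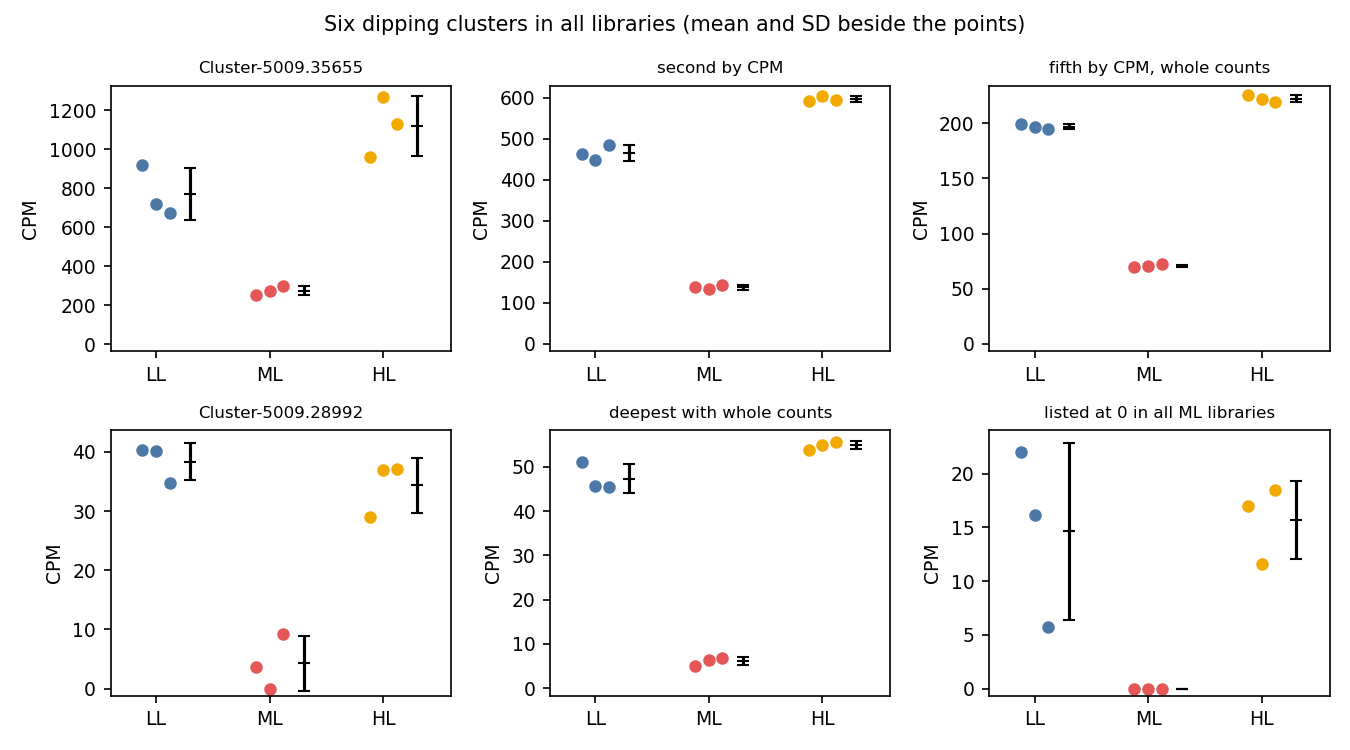
CPM in each library of 6 dipping clusters, with the mean and SD (n = 3) beside the points and axes that begin at 0. ML is the lowest group in each panel; the libraries of Cluster-5009.35655, of Cluster-5009.28992 in ML and of the cluster listed at 0 in all ML libraries spread widely, while those with whole counts lie close together.

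Ordering the clusters per length brought short ones to the front. Of the 10 clusters with the highest FPKM, the leading one had an implied length of 91 bases and stood at 808 FPKM in LL, 328 in ML and 747 in HL. Its CPM values were 70.7, 68.5 and 74.5 in LL, 28.7, 29.1 and 31.4 in ML, and 70.9, 73.7 and 67.7 in HL, all from whole counts, so LL and HL overlapped fully around a ratio of 0.993. Others among these 10 had 95, 86, 114 and 116 bases. At such lengths the implied length depends strongly on how the authors' program corrects for fragment size, so the FPKM of these clusters is uncertain. The CPM does not depend on length, but the cluster of 114 bases had non-whole counts in all 9 libraries. Of the 345 clusters, 8 were implied to be shorter than 150 bases (2.32%), as were 1.05% of the LL-HL-alike clusters.

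The deepest dips came mainly from clusters with non-whole counts. Some of these had unsteady ML libraries, while others were steady, such as a cluster of 5227 bases at 16.4, 19.2 and 16.7 CPM in ML. Cluster-5009.28992, of 2147 bases, had the lowest ML level relative to the smaller of LL and HL among clusters with LL and HL means of at least 20 CPM. It stood at 40.3, 40.1 and 34.7 CPM in LL and at 29.0, 36.9 and 37.1 CPM in HL. In ML it was listed at 3.61, 0 and 9.26 CPM, so 1 ML library held 171 reads and another none. The mean of ML was 11.2% of LL, and edgeR's log2 fold change was −3.20 (SE 0.74), with 3.21 from ML to HL (SE 0.74). Without the third ML library the change from LL to ML was −4.45, and without the second it was −2.60.

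A single cluster, of 6093 bases, was listed at 0 in all 3 ML libraries. Its LL libraries stood at 22.1, 16.2 and 5.75 CPM and its HL libraries at 17.0, 11.6 and 18.5 CPM, so its LL libraries alone spanned 5.75 to 22.1 CPM. A floor of 3 counts per library is 0.154 to 0.163 CPM in ML. The LL mean was 93.5-fold the mean of this floor over the ML libraries. In all, 10 of the 345 clusters were listed at 0 in some ML library, 8 of them in a single library, and none was at 0 in LL or HL. Each of these 10 had non-whole counts elsewhere. Of the 20 clusters at or under 1/4 of the smaller of LL and HL, 18 had non-whole counts and 7 had a 0 in ML.

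Deep dips in clusters with whole counts were few but steady. The deepest, of 415 bases, stood at 51.0, 45.6 and 45.4 CPM in LL, at 5.13, 6.35 and 6.83 CPM in ML, and at 53.9, 55.0 and 55.6 CPM in HL. Its ML level was 12.9% of LL and 11.1% of HL, and per length it went from 115 FPKM to 14.7 and back to 131. The other at or under 1/4 had 407 bases and went from 9.39, 8.57 and 10.2 CPM in LL to 1.49, 1.43 and 0.976 CPM in ML, with 8.96, 7.89 and 7.82 CPM in HL. LL and HL overlapped in this second case and were apart in the first. The next whole-count cluster by depth, of 1055 bases, was already at 26.8% of LL, with LL at 16.7 ± 1.46 CPM, ML at 4.47 ± 0.53 and HL at 24.1 ± 1.95 (SD, n = 3 each).

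Whole counts in all 9 libraries were found for 138 of the 345 clusters, and 207 (60.0%, exact 95% binomial interval 54.6 to 65.2, over clusters that are not independent) had a non-whole count in at least 1 library. Among the LL-HL-alike clusters 54.2% had one. Dips at or under 1/3 were from non-whole clusters in 80.4% of 46 cases, and shallower dips in 56.9% of 299. The ML level had a median of 43.9% of the smaller of LL and HL in whole-count clusters and 43.4% in the others. The choice caps this level for every cluster. The likeness of these medians therefore cannot show whether the usual depth rested on non-whole counts. Summed over the 138 whole-count clusters, LL was at 3460 ± 198 CPM, ML at 1447 ± 66.1 and HL at 4144 ± 111 (SD, n = 3 each), and ML was 41.8% of LL. In 115 of the 138 (83.3%) HL was above LL, as in 49.9% of the LL-HL-alike clusters with whole counts.

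Dipping clusters had a lower median length, a feature the choice did not use, than those they were drawn from, though not among the deeper dips. Their median implied length was 1147 bases, with the middle quartiles at 668 and 1645, while the LL-HL-alike clusters had a median of 1293, with quartiles at 807 and 2030. Clusters below 500 bases made up 15.4% of the dipping set and 10.9% of the LL-HL-alike clusters, and clusters of at least 2500 bases 10.1% and 15.7%. In other words, 5.47% of the LL-HL-alike clusters below 500 bases dipped, and 2.51% of those of at least 2500 bases. The 46 dips at or under 1/3 went the other way, with a median of 1385 bases and 10.9% below 500 bases, while the 299 shallower ones had a median of 1103. Over all depths the difference was seen in both classes of counts, at 684 against 1043 bases where counts were whole and 1365 against 1506 where they were not. A shift with length ran through the LL-HL-alike clusters as a whole: the median ML level was 82.6% of LL and 74.3% of HL below 500 bases, and 96.2% and 108% from 2500 bases up. The part of this shift in the lengths of the dipping set was not tested.

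**Figure D4:**
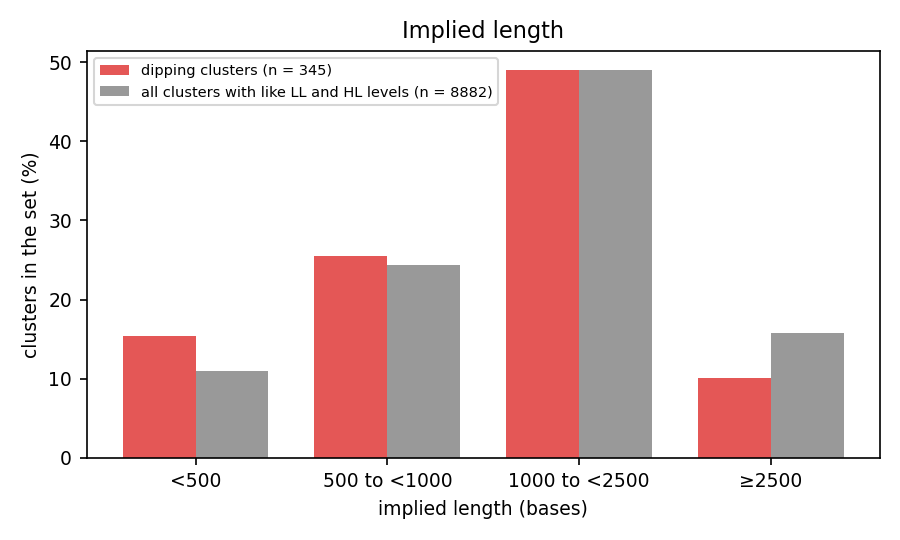
Share of clusters in 4 classes of implied length, for the 345 dipping clusters (red) and the 8882 LL-HL-alike clusters they came from (grey). The dipping set holds more clusters below 500 bases (15.4% against 10.9%) and fewer of at least 2500 bases (10.1% against 15.7%).

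Level made less difference to how often a cluster dipped, except at the top. By the mean of LL and HL, 4.07% of the LL-HL-alike clusters between 5 and 10 CPM dipped, 3.78% between 10 and 20, 4.33% between 20 and 50, and 4.56% between 50 and 100. From 100 CPM up it was 1.80%, or 18 clusters. Within the set, depth followed length, level per kilobase and the ratio of HL to LL only weakly, with Spearman's rho across the 345 clusters of −0.145, 0.142 and −0.148 for the ML level relative to the smaller of LL and HL.

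The dip had a counterpart of similar size. With the direction turned, 304 clusters had LL and HL within 1.5-fold and an ML level at least 2-fold above both, or 3.42% of the same 8882 clusters. These peaking clusters had a median length of 1490 bases, with 20.4% of at least 2500 bases, and 78.3% had a non-whole count (95% interval 73.2 to 82.8), compared with 60.0% of the dipping ones. Smaller departures of ML were uneven, since the ML mean was below LL and HL in 4844 of the 8882 clusters and above them in 2368. With HL as the odd group, 1143 clusters dipped and 107 peaked, and with LL as the odd group 78 and 20. Low clusters thus outnumbered high ones in each case, but the rule treats them unequally. The minimum level was set on the like groups, where a dipping cluster is high and a peaking one low. Peaks from below this minimum were left out, so the counts cannot show whether dips were more common than peaks. Clusters low in HL were the longest of these sets, with a median of 1606 bases against 1147 for those low in ML. These sets share libraries and CPM scaling, and no test of their sizes was made.

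Libraries that took no part in a choice gave the only values of the dip that the choice did not use. They may come from the same cultures as the libraries used to choose, and the 3 rounds share libraries, so they are not independent repeats. The rule was applied to 2 replicate numbers of each group, and the clusters it found were then read in the 3 libraries of the number left out. With numbers 1, 2 and 3 left out in turn, it found 290, 385 and 423 clusters. In the libraries left out, ML was below LL and HL in 280 (96.6%), 367 (95.3%) and 409 (96.7%) of them. For the LL-HL-alike clusters found on the same libraries these shares were 55.5%, 49.6% and 51.1%. The full depth came back less often: ML was at most 1/2 of LL and HL in 77.2%, 67.0% and 53.0% of the clusters, against 5.07%, 4.06% and 3.41% of the LL-HL-alike ones. The median ML level in the libraries left out was 41.5%, 45.7% and 49.2% of the smaller of LL and HL, and 42.8%, 42.3% and 42.7% in the libraries used to choose. Direction was thus almost always seen again, whereas membership at the 2-fold limit often was not.

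**Figure D5:**
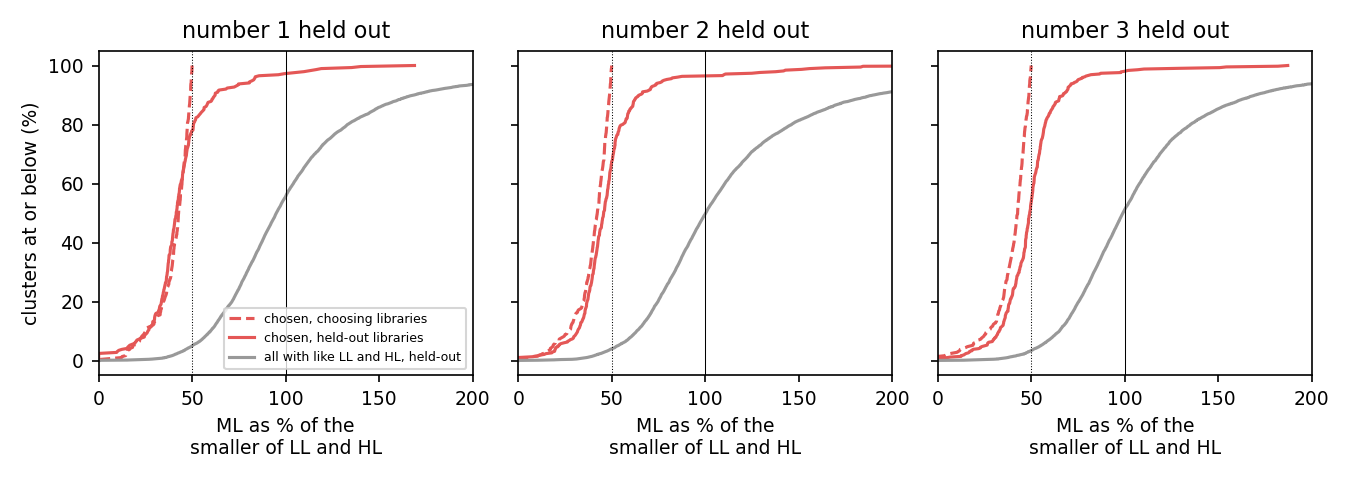
Cumulative share of clusters by ML level as a percentage of the smaller of LL and HL, with replicate number 1, 2 or 3 left out of the choice (dotted line, 50%; thin line, 100%; the axis ends at 200%). Clusters chosen on the other libraries (solid red) lie mostly below 100% in the libraries left out, and 53.0% to 77.2% lie at or below 50%, while the LL-HL-alike clusters (grey) centre near 100%.

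The 3 ML libraries were not equally low. The lowest ML value was in the first ML library for 181 clusters, in the second for 96 and in the third for 68, and the summed level ran from 4539 to 4953 CPM. Among LL libraries the first held the highest sum, at 12860 CPM. Within ML the median coefficient of variation of the dipping clusters was 9.53%, compared with 7.74% in LL and 6.14% in HL for the same clusters and 6.39% in ML for the LL-HL-alike clusters. Counting error weighs more at low levels, and the median ML level was 8.52 CPM in the dipping clusters and 20.5 CPM in the LL-HL-alike ones. The part of counting error in these differences was not tested. In 32 clusters the highest ML library was over 2-fold the lowest, or the lowest was 0 and another was not. Leaving out a library changed the set by a modest amount, from 303 clusters without the first LL library to 389 without the third LL library, and between 281 and 332 of the 345 were kept.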

How the data were processed

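The authors deposited 1 table per library with an estimated read count and an FPKM value for each cluster, per the file headers. The deposited counts were taken to be expected counts, because part of them carry decimals and their totals differ between libraries. Whether reads were divided among similar sequences is not stated. The submitters' processing notes name DESeq 1.10.1. No label or file header names the aligner, counter, assembly or annotation, or says what the identifier's numbers mean. Libraries were made from 1.5 µg of RNA each, per the labels' protocols. LL libraries held 17778225 to 18914255 counts, ML libraries 18451243 to 19535140 and HL libraries 18799637 to 19643714. Floors cover counting error only. The binomial intervals treat clusters as independent draws and cover neither counting error nor the spread between libraries.

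CPM were computed on unrounded counts and all clusters. Counts were rounded for edgeR 4.0.16 in R 4.3.3 (default expression filter, TMM, robust quasi-likelihood, group as the only term, 6 residual degrees of freedom), whose code was tested on simulated data. DESeq2 1.42.0 and limma 3.58.1 on FPKM were alternatives. TMM factors were 0.992 to 1.06 (LL), 1.03 to 1.10 (ML) and 0.905 to 0.928 (HL). The standard error is the log2 fold change divided by the square root of F. Implied length was derived from count and FPKM where FPKM was at least 0.5. Within groups, libraries differed by a chi-square per degree of freedom of 6.22 to 9.79, so no pair was near-identical. Named clusters were the one with the highest mean CPM of LL and HL and the one with the lowest ML level relative to the smaller of them at LL and HL means of at least 20 CPM. Other clusters were given by rank. The clusters, sets and tests were chosen with earlier results of these data known.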

Additional observations from a re-analysis of the deposited data

How the results depend on the processing

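Scaling and tool changed few calls of the dip: across all alternatives, 325 to 338 of the 345 clusters were called lower in ML than in LL and 334 to 344 higher in HL than in ML. The clusters were chosen for a 2-fold dip in these same libraries, so such counts describe the set and give the dip no support. For the alternatives in this section, no share of calls over other clusters was computed. Calls between HL and LL numbered 204 and fell to 121 and 116 with limma on log2(FPKM + 1) and log2(FPKM + 0.1). With DESeq2 the change of Cluster-5009.28992 from LL to ML, −3.20, no longer passed (adjusted p = 0.0533, against 0.00967 with edgeR and 0.00119 to 0.0381 when a library was left out), and the cause was not tested. The set itself depends on its limits: TMM-scaled CPM gave 328 clusters, 267 of them among the 345, since 75 of the 78 lost ones then had LL and HL over 1.5-fold apart, and 61 were gained. FPKM gave 466, a minimum of 2 CPM 455, and a tighter limit on LL against HL 212. By construction, 46 were left at ML of at most 1/3 and 138 with whole counts alone. Median length was 1186 bases with TMM-scaled CPM, 1075 and 1224 with a minimum of 2 and 10 CPM, 1385 for dips to at most 1/3, which is above the 1293 of the LL-HL-alike clusters, and 684 for whole counts, and 80.4% of the dips to at most 1/3 had non-whole counts. In libraries left out of the choice, ML was below LL and HL in a mean of 96.2% of clusters and at most 1/2 of both in 65.7%. No sign of pairing by replicate number was seen: deviations from group means correlated at −0.135 to 0.0232 for equal numbers and −0.049 to 0.0762 for others. With 3 libraries a group this cannot show that the libraries were unpaired. With the replicate number as a block, 334, 339 and 190 clusters were called for ML against LL, HL against ML and HL against LL, and the log2 fold change of Cluster-5009.28992 from LL to ML was −3.37.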
